A study of Mus musculus with 6 samples.

Results

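Sirpb1a and Sirpa are signal-regulatory proteins, cell surface receptors of the immunoglobulin superfamily that are found mainly on myeloid cells. Cd47 is the broadly expressed ligand of Sirpa, and Tyrobp is the adaptor through which receptors such as Sirpb1a signal. These genes were compared between lungs of adult female (AKR/J x FVB/NJ)F1 mice, called AKR_F1, and adult female (DBA/2J x FVB/NJ)F1 mice, called DBA_F1, with 3 arrays in each group. Each parent strain is inbred, so both groups received 1 chromosome set from FVB/NJ, and the second set came from AKR/J in one group and from DBA/2J in the other. The comparison asks for basal differences in lung expression between these genotypes. All probe sets that the platform annotation pairs with the symbol Sirpb1a, Sirpa, Cd47 or Tyrobp alone were taken, which gave 10 probe sets for 4 genes, of 45037 probe sets in all. Sirpb1a has 1 of them, Sirpa 3, Cd47 5 and Tyrobp 1. The genes were chosen by the measured group difference of Sirpb1a, together with the ligand and adaptor of its family, so the differences of all of them are given as a description, without a test.

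A SIRP protein on a macrophage can restrain or promote engulfment, depending on its tail. Sirpa carries inhibitory tyrosine motifs in its cytoplasmic tail. When it binds Cd47 on a neighbouring cell, these motifs recruit the phosphatases Ptpn6 (SHP-1) and Ptpn11 (SHP-2), and phagocytosis is damped. Sirpb1a has a short tail without such motifs and pairs through its membrane segment with Tyrobp (DAP12), whose activating motif recruits the kinase Syk. In the lung, Sirpa is also bound by the surfactant proteins Sftpa1 and Sftpd.

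Sirpb1a lies on chr3:15371661-15426522 (GRCm38.p6) in a row of closely similar SIRP genes that includes Sirpb1b, Sirpb1c and Gm5150. Which exon or untranslated region the Sirpb1a probe set targets is not given in the sources used here. How alike the copies are near their annotated starts can be seen in the stretch below, taken from their promoter windows. An array probe can bind the transcript of more than 1 copy, but this stretch does not show how alike the copies are where the probes bind. The sequences are those of RefSeq for the reference strain C57BL/6J, not for the strains crossed here, all on the minus strand, read 5′ to 3′. Capitals mark bases that differ from Sirpb1a or have no counterpart there.
Sirpb1a, chr3:15426471-15426664: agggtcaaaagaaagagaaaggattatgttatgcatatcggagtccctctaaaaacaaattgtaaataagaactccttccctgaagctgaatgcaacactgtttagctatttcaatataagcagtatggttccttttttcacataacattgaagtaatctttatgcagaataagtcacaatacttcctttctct
Sirpb1b, chr3:15575016-15575209: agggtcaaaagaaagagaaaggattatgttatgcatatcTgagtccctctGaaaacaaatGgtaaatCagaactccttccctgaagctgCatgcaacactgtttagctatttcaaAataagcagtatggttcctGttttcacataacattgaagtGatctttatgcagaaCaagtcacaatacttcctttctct
Sirpb1c, chr3:15848479-15848672: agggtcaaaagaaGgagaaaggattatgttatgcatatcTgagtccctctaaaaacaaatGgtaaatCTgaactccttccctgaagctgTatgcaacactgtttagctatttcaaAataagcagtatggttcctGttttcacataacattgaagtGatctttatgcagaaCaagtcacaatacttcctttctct
Gm5150, chr3:16006388-16006582: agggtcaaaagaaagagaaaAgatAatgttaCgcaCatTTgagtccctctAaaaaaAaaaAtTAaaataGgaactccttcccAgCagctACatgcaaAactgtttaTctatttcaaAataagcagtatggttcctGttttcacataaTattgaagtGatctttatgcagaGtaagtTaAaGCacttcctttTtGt
Over 194 aligned bases, Sirpb1b differed from Sirpb1a at 9 (95.4% identity), Sirpb1c at 10 (94.8%) and Gm5150 at 28 (85.6%), with 1 further base in Gm5150 unaligned.

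Promoter entries (250 bases before to 50 after the annotated start) were found for 2 of the 4 genes, Sirpb1a and Cd47, and differ widely in composition. The starts used for them are not the outer ends of the gene spans given here. The Cd47 window lies inside the span of Cd47 (chr16:49851328-49912503). Part of the Sirpb1a window (chr3:15426378-15426677), and of the Sirpb1a stretch above, lies inside the span of Sirpb1a. The Sirpb1a window has 38.7% G and C, more than in 7.9% of the 32851 entries, and 1 CpG dinucleotide. The Cd47 window on chr16:49855404-49855703 has 74.0% G and C, more than in 95.2% of entries, and 35 CpG dinucleotides, against a median of 7 over all entries. The word GGAAGT, a core that PU.1 and other Ets factors recognise, was searched on both strands. It has 1 match in the Sirpb1a window and 0 in the Cd47 window, and 23.8% of all entries hold it.

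Signals are deposited log2 values, and levels of different probe sets are not compared, since each has its own probe response. The Sirpb1a probe set (1458683_at) had signals of 7.0, 6.96 and 6.88 in AKR_F1 lungs, against 5.19, 5.11 and 5.11 in DBA_F1 lungs. All AKR_F1 arrays were thus above all DBA_F1 arrays, and the gap was many times the spread within either group. The mean was 6.94 ± 0.061 in AKR_F1 and 5.14 ± 0.049 in DBA_F1 (SD, n = 3 each). The log2 difference, AKR_F1 minus DBA_F1, was 1.81 ± 0.070 (moderated standard error, SE, of a limma fit over all tested probe sets), or 3.50-fold. Among 27022 tested probe sets it took rank 12 of those higher in AKR_F1 and rank 122 by absolute size. As a measure of signal without a transcript, the Y-linked genes Eif2s3y, Kdm5d and Uty, which female mice lack, ran from 2.42 to 3.32 over all arrays.

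A second probe set in the family (1448025_at) is annotated with Sirpb1a, Sirpb1b and Sirpb1c together, so its signal belongs to none of them alone. It had 8.30, 8.07 and 8.51 in AKR_F1 lungs, against 8.28, 7.84 and 8.59 in DBA_F1 lungs. The groups overlapped, and the lowest and the highest array were both DBA_F1. The difference was 0.05 ± 0.20 (SE; 95% interval -0.41 to 0.51, limma adjusted p = 0.915), a range that does not reach the 1.81 of the Sirpb1a probe set. Whether strain sequence differences under the probes, or unequal binding of the copies, bear on the Sirpb1a value was not tested. Sirpb1b, Sirpb1c, Gm5150 and the other listed genes of the family have no probe set with a single symbol here, so 0 of the 6 were analysed.

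**Figure D1:**
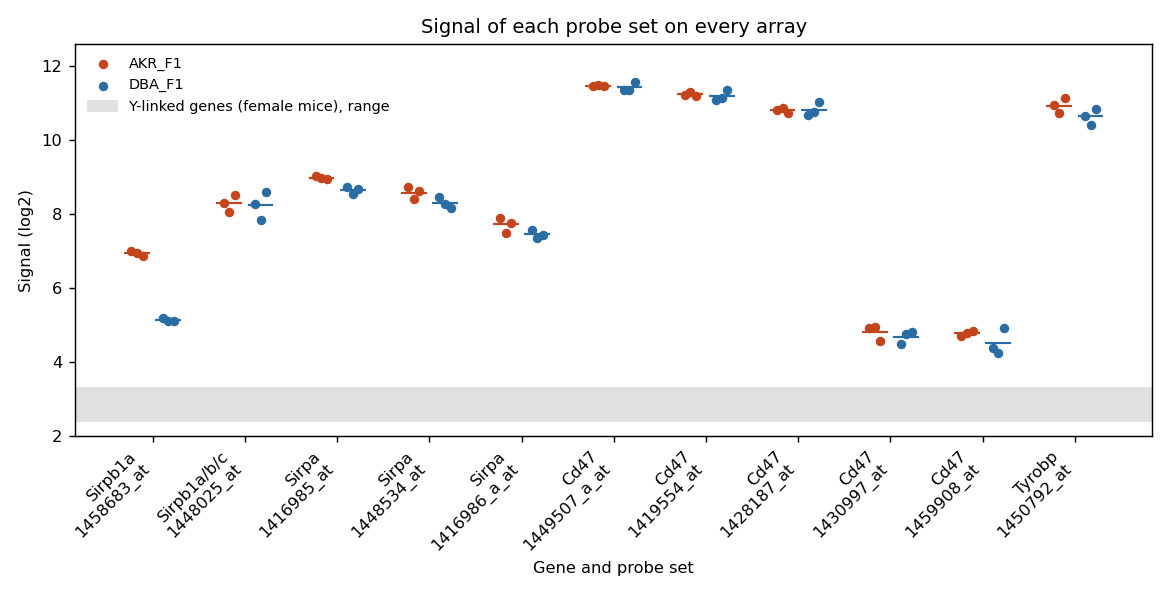
Signal (log2) of each probe set of Sirpb1a, Sirpa, Cd47 and Tyrobp, and of the probe set shared by Sirpb1a, Sirpb1b and Sirpb1c, with a point for each array (AKR_F1 left, DBA_F1 right) and a line at the group mean. The grey band is the range of 3 Y-linked genes, 2.42 to 3.32. The Sirpb1a groups stand apart (6.94 against 5.14), while the shared probe set and the Cd47 probe sets overlap.

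Sirpa (chr2:129591042-129632228), the inhibitory receptor, had slightly higher means in AKR_F1 lung by all 3 of its probe sets. The brightest (1416985_at) gave 9.03, 8.97 and 8.95 in AKR_F1 lungs and 8.73, 8.53 and 8.69 in DBA_F1 lungs, with no overlap between the groups. Its log2 difference was 0.33 ± 0.065 (SE, 95% interval 0.18 to 0.48), or 1.26-fold. Probe set 1448534_at gave 8.72, 8.40 and 8.63 in AKR_F1 lungs, against 8.46, 8.27 and 8.16 in DBA_F1 lungs. The lowest AKR_F1 array lay just under the highest DBA_F1 array there, and the difference was 0.29 ± 0.11 (interval 0.04 to 0.54). Probe set 1416986_a_at gave 7.91, 7.49 and 7.78 in AKR_F1 lungs, against 7.56, 7.36 and 7.45 in DBA_F1 lungs. It differed by 0.27 ± 0.11 (interval -0.002 to 0.54). The same AKR_F1 array, replicate 2, was the lowest of its group by both of these.

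Tyrobp (chr7:30413782-30417582), the adaptor of Sirpb1a, had 10.94, 10.73 and 11.13 in AKR_F1 lungs, against 10.66, 10.42 and 10.85 in DBA_F1 lungs. The groups overlapped, and arrays within each group spread farther than the group means differed. The means were 10.93 ± 0.20 in AKR_F1 and 10.64 ± 0.22 in DBA_F1 (SD, n = 3 each). Their difference was 0.29 ± 0.13 (SE, 95% interval -0.03 to 0.60). In each group the array highest for Tyrobp was also the highest for the probe set shared by the Sirpb1 genes, and the lowest was also the lowest. In whole lung, fewer cells of a type and less RNA per cell cannot be told apart.

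Cd47 (chr16:49851328-49912503), the ligand, had nearly equal means in both groups by its bright probe sets. The brightest (1449507_a_at) gave 11.46, 11.48 and 11.46 in AKR_F1 lungs, against 11.35, 11.36 and 11.58 in DBA_F1 lungs. The difference was 0.03 ± 0.067 (SE; 95% interval -0.12 to 0.19), so that a change of more than about 0.19 in either direction lies outside the interval. DBA_F1 replicate 3 was the highest array there and also by the other bright probe sets, 1419554_at and 1428187_at. Those differed by 0.05 (interval -0.14 to 0.23) and -0.01 (interval -0.24 to 0.21).

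The remaining Cd47 probe sets were dim, and their sizes rest on weaker ground. Probe set 1430997_at had 4.91, 4.96 and 4.58 in AKR_F1 lungs, against 4.50, 4.76 and 4.81 in DBA_F1 lungs, a difference of 0.13 ± 0.14 (SE). With AKR_F1 replicate 3 alone against the DBA_F1 arrays its sign turned (-0.11). Probe set 1459908_at had 4.70, 4.79 and 4.86 in AKR_F1 lungs, against 4.40, 4.25 and 4.94 in DBA_F1 lungs. Its mean over all arrays fell under the filter on low signal (4.72), so it was not in the fit. The other 9 probe sets passed the filter.

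In the fit a probe set was called at a Benjamini-Hochberg adjusted p under 0.05, which held for 2.62% of all tested probe sets (1.57% higher and 1.05% lower in AKR_F1). Of the 9 probe sets that were fitted, 1, that of Sirpb1a, was called, and nothing is read from this count, since Sirpb1a was chosen for its difference. The groups did not overlap for 2 of the 9, those of Sirpb1a and the brightest of Sirpa, against 23.6% of all tested probe sets.

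Genes of squamous epithelium, skeletal muscle and fat varied widely between arrays. The mean of 9 squamous epithelium genes was 5.13 and 5.17 on AKR_F1 replicates 1 and 2 but 9.28 on AKR_F1 replicate 3, while the DBA_F1 arrays had 8.91, 9.43 and 8.82. Keratin 13 (Krt13, difference -5.76) and keratin 4 (Krt4, -5.24) varied most. Skeletal muscle genes followed the same arrays, led by the myosin Myh1 (-4.28) and skeletal actin Acta1 (-3.76). In both lists 0 genes were called by limma. An unadjusted p under 0.05 was reached by 4 of 9 and 1 of 8, against 2523 of all 13202 tested genes. Without AKR_F1 replicate 3, 8 genes were called in each of these lists. The 8 adipose genes had list means of 6.48 to 7.47 in AKR_F1 and 8.28 to 9.37 in DBA_F1, and 6 were called lower in AKR_F1, among them Pck1 (-3.58, adjusted p = 0.0233), Fabp4 (-1.87, 0.0451), Adipoq (-1.85, 0.0289) and Cidec (-1.71, 0.016). All 8 had no overlap between the groups, as for 24.2% of all tested genes. Of all tested genes, 1.06% were called lower and 1.42% higher in AKR_F1. The count of 6 was 0 without AKR_F1 replicate 2, 1 without DBA_F1 replicate 1, 2 without DBA_F1 replicate 2, 3 without AKR_F1 replicate 1 and 3 with robust eBayes. Each of these 4 calls was lost when AKR_F1 replicate 2 was left out (adjusted p from 0.0809 to 0.166), and those of Pck1, Fabp4 and Adipoq also when replicate 1 or 2 of DBA_F1 was left out (0.0565 to 0.139). Fabp4 was not called without AKR_F1 replicate 1 (0.0523) or 3 (0.0636) either. With AKR_F1 replicate 3 alone set against the DBA_F1 arrays, Sirpb1a differed by 1.74, and within AKR_F1 its values spanned 6.88 to 7.0. Lung identity genes were bright on every array (list means of 12.59 to 12.68 in AKR_F1 and 12.50 to 12.58 in DBA_F1), with 1 of 9 tested called, Sftpb, higher in AKR_F1 (0.32, adjusted p = 0.0371), a call lost when replicate 1 or 2 of AKR_F1, or replicate 2 or 3 of DBA_F1, was left out (0.0683 to 0.151). The part of these tissues in the other values was not tested.

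**Figure D2:**
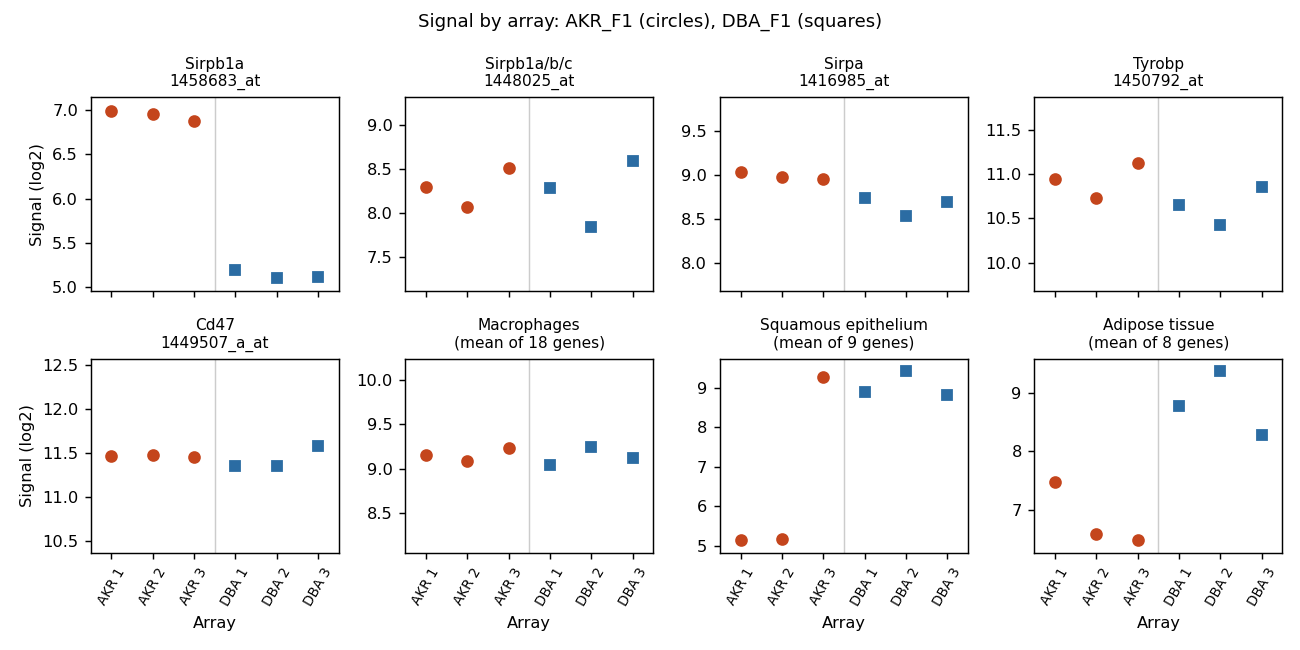
Signal (log2) on each array for Sirpb1a, the shared Sirpb1 probe set, the brightest probe sets of Sirpa, Tyrobp and Cd47, and the mean of 3 marker lists, AKR_F1 arrays left (circles) and DBA_F1 arrays right (squares). Panels differ in their ranges. Sirpb1a separates the groups, while squamous genes are low on AKR_F1 replicates 1 and 2 alone (5.13 and 5.17) and adipose genes are low on all AKR_F1 arrays.

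Macrophage markers differed in both directions. Of 18 tested macrophage markers, 11 had higher means in AKR_F1, with a median difference of 0.07, against 0.015 over all 13202 tested genes. An unadjusted p under 0.05 was reached by 9 of the 18, against 2523 of all 13202 tested genes. The groups did not overlap for 7 of the 18, against 24.2% of all tested genes. The list mean ran from 9.08 to 9.23 in AKR_F1 and from 9.04 to 9.25 in DBA_F1. By limma 1 was called, the growth factor receptor Csf1r, higher in AKR_F1 (0.23 ± 0.042, adjusted p = 0.0439), where 2.48% of all tested genes were called (1.42% higher and 1.06% lower in AKR_F1). The 3 tested probe sets of Csf1r differed by 0.09 to 0.23, and only 1 of them was called. That call was lost when any 1 of the 6 arrays was left out (adjusted p from 0.0737 to 0.169). Lysozyme 2 (Lyz2), abundant in macrophages and type 2 cells, differed by -0.02 and the complement gene C1qa by -0.48 (adjusted p = 0.207). C1qb (-0.39, adjusted p = 0.255), Pparg (-0.33, 0.21) and Chil3 (-0.19, 0.364) were also lower in AKR_F1, with no overlap between the groups for Pparg and Chil3. The lysosomal marker Cd68 differed by 0.37 (adjusted p = 0.204), the proton pump subunit Atp6v0d2 by 0.30 (0.0512), Plet1 by 0.21 (0.117), the protease Ctss by 0.20 (0.135) and the integrin Itgax by 0.19 (0.237). None of the defining macrophage markers tested was near the level of the Y-linked genes.

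Among 11 tested monocyte and neutrophil markers, 5 had higher and 6 lower means in AKR_F1. The median difference was -0.31, and the list mean ran from 7.12 to 7.45 in AKR_F1 and from 7.15 to 8.01 in DBA_F1. The neutrophil surface protein Cd177 was called (-0.87 ± 0.15, adjusted p = 0.0328), with signals of 5.02, 5.36 and 4.91 in AKR_F1 lungs, against 6.12, 5.74 and 6.02 in DBA_F1 lungs. Its call was lost when AKR_F1 replicate 1 (adjusted p = 0.132) or any 1 DBA_F1 array (0.0581 to 0.0788) was left out. Camp, the cathelicidin of neutrophil granules, differed by -0.83 (adjusted p = 0.156), and the neutrophil growth factor receptor Csf3r by 0.02. The calcium-binding S100a9 had 10.16, 10.42 and 11.00 in AKR_F1 lungs, against 10.77, 10.11 and 12.30 in DBA_F1 lungs, where DBA_F1 replicate 3 was the highest array. S100a8 and the chemokine receptor Cxcr2 were also highest on that array. Dendritic cell markers had a median of 0.09 with 0 of 9 called by limma (1 at an unadjusted p under 0.05). The largest of those differences were Clec10a (-0.28, adjusted p = 0.314) and Zbtb46 (0.22, adjusted p = 0.331). Among lymphocyte markers 0 of 8 were called (1 unadjusted), with Cd8a at 1.24 and Cd4 at 0.34. AKR_F1 replicate 3 was the highest array for both, and for Cd8a it had 7.90, against 6.43 and 5.70 on the other AKR_F1 arrays. The 4 tested Cd8a probe sets differed by 0.14 to 1.24. Red cell and platelet genes, listed because Cd47 is prominent on red cells, had 0 of 6 called (1 unadjusted), with the platelet chemokines Ppbp at -0.95 (adjusted p = 0.0669) and Pf4 at 0.45. The part of these cell types in the values of Sirpa and Tyrobp was not tested.

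Signalling partners of Sirpa were all higher on average in AKR_F1 lung, though few passed. All 11 tested genes of this list had positive differences (median 0.14), and 2 rose. Of all 13202 tested genes, 7280 had positive differences (median 0.015) and 1.42% were called higher. The adaptor Grb2 had 9.04, 9.25 and 9.17 in AKR_F1 lungs, against 8.70, 8.49 and 8.55 in DBA_F1 lungs, which do not overlap. It differed by 0.57 ± 0.079, or 1.49-fold (limma adjusted p = 0.0162), and both of its probe sets were called (0.57 and 0.58). The Src family kinase Fyn had 9.14, 9.11 and 9.12 in AKR_F1 lungs, against 8.75, 8.71 and 8.74 in DBA_F1 lungs. It differed by 0.39 ± 0.044 (adjusted p = 0.0078), while its other probe set differed by 0.19 and was not called. The phosphatases that Sirpa recruits were not called, with Ptpn6 at 0.04 ± 0.060 (adjusted p = 0.767) and Ptpn11 at 0.03 ± 0.055 (adjusted p = 0.846). The 2 tested probe sets of Ptpn6 differed by 0.04 and 0.18, and the 3 of Ptpn11 by -0.10 to 0.03. Grb2 and Fyn act downstream of many receptors and are not particular to Sirpa. The call of Grb2 was lost when replicate 2 of AKR_F1 (adjusted p = 0.0738) or of DBA_F1 (0.0698) was left out. The call of Fyn was lost when AKR_F1 replicate 1 was left out (0.0547).

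Ligands in lung and matrix, listed together with calreticulin and its receptor Lrp1, gave no called gene among 5 tested by limma. An unadjusted p under 0.05 was reached by 4 of the 5, against 2523 of all 13202 tested genes. Thrombospondin 1 (Thbs1), a secreted ligand of Cd47, had 8.60, 8.68 and 9.0 in AKR_F1 lungs, against 8.17, 8.29 and 8.54 in DBA_F1 lungs, a difference of 0.42 ± 0.13 (adjusted p = 0.158). Lrp1, the engulfment receptor that recognises calreticulin, differed by -0.20 ± 0.050 (adjusted p = 0.0968). The surfactant proteins that bind Sirpa differed by 0.19 (Sftpa1, adjusted p = 0.081) and 0.16 (Sftpd, adjusted p = 0.143). Calreticulin (Calr) differed by 0.10 (adjusted p = 0.277). The groups did not overlap for any of the 5, as for 24.2% of all tested genes. Thbs2 fell under the filter and was not tested.

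Among 11 tested genes for partners of Cd47, integrins with which it associates were not called, with Itgav at 0.06, Itgb1 at 0.16 and Itgb3 at -0.26. Bnip3, a mitochondrial protein of the cell death pathway that has been linked to Cd47 in T cells, fell. It had 9.51, 9.62 and 9.61 in AKR_F1 lungs, against 9.9996, 10.42 and 10.28 in DBA_F1 lungs, a difference of -0.65 ± 0.10 (limma adjusted p = 0.0266). Bnip3 is also a general marker of hypoxia and mitochondrial turnover. Its call was lost when replicate 1 or 2 of AKR_F1, or replicate 2 or 3 of DBA_F1, was left out (0.064 to 0.114), and between AKR_F1 replicate 3 alone and the DBA_F1 arrays (adjusted p = 0.331).

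Receptors that share the adaptor Tyrobp with Sirpb1a had differences in both directions. Of 8 tested, 0 were called by limma (0 at an unadjusted p under 0.05), with a median difference of 0.09 and a range from -0.15 to 0.38. The activating receptor Cd300lb had the largest (0.38 ± 0.32, adjusted p = 0.589), then the NK cell receptor chain Klrd1 (0.23 ± 0.11, adjusted p = 0.322). Trem1 and Trem2, which amplify or restrain inflammatory signals in myeloid cells, differed by 0.11 ± 0.16 and -0.11 ± 0.089. Clec5a, Klra8, Klrc2 and Cd200r4 were under the filter. With no filter Cd200r4 was called (-0.86, adjusted p = 0.00691), at a mean of 2.58 in AKR_F1 and 3.44 in DBA_F1, near the level of the Y-linked genes.

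The kinases and adaptors downstream of Tyrobp also had no called gene among 15 tested by limma, with a median difference of 0.11. An unadjusted p under 0.05 was reached by 4 of the 15, against 2523 of all 13202 tested genes. The largest were the T cell adaptor Lat (0.50 ± 0.21, adjusted p = 0.259) and Lcp2 (0.35 ± 0.12, adjusted p = 0.189). For Lat the highest array was AKR_F1 replicate 3, at 8.44, against 7.77 and 7.57 on the other AKR_F1 arrays. Syk, the kinase that Tyrobp recruits, had 7.75, 7.97 and 8.25 in AKR_F1 lungs, against 7.72, 7.63 and 7.78 in DBA_F1 lungs, and differed by 0.28 ± 0.12 (adjusted p = 0.283). Fcer1g, the other adaptor of myeloid activating receptors, differed by 0.27 ± 0.094 (adjusted p = 0.201), close in size to the 0.29 of Tyrobp.

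Of 10 tested inhibitory receptors of myeloid cells, 8 had higher means in AKR_F1, with a median difference of 0.13. By limma 1 was called, where 2.48% of all tested genes were called. Siglecf, a sialic acid receptor of alveolar macrophages and eosinophils, had 7.57, 7.15 and 7.34 in AKR_F1 lungs, against 6.45, 6.46 and 6.67 in DBA_F1 lungs. It rose by 0.83 ± 0.12, or 1.77-fold (limma adjusted p = 0.0182). The call was lost when AKR_F1 replicate 1 (adjusted p = 0.0537), DBA_F1 replicate 1 (0.0512) or DBA_F1 replicate 2 (0.0879) was left out. The paired immunoglobulin-like receptor Pirb (0.01) and the inhibitory Fc receptor Fcgr2b (0.01) had nearly equal means in the groups, while Pilra differed by 0.27, Cd300a by 0.22 and Cd300lf by 0.20, all with overlap. Over all related lists together, 60 genes were tested and 47 had positive differences, against 7280 of 13202 tested genes. The median difference was 0.12, against 0.015 over all tested genes. Of the 60, 3 were called higher and 1 lower in AKR_F1, where 1.42% and 1.06% of all tested genes were called.

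**Figure D3:**
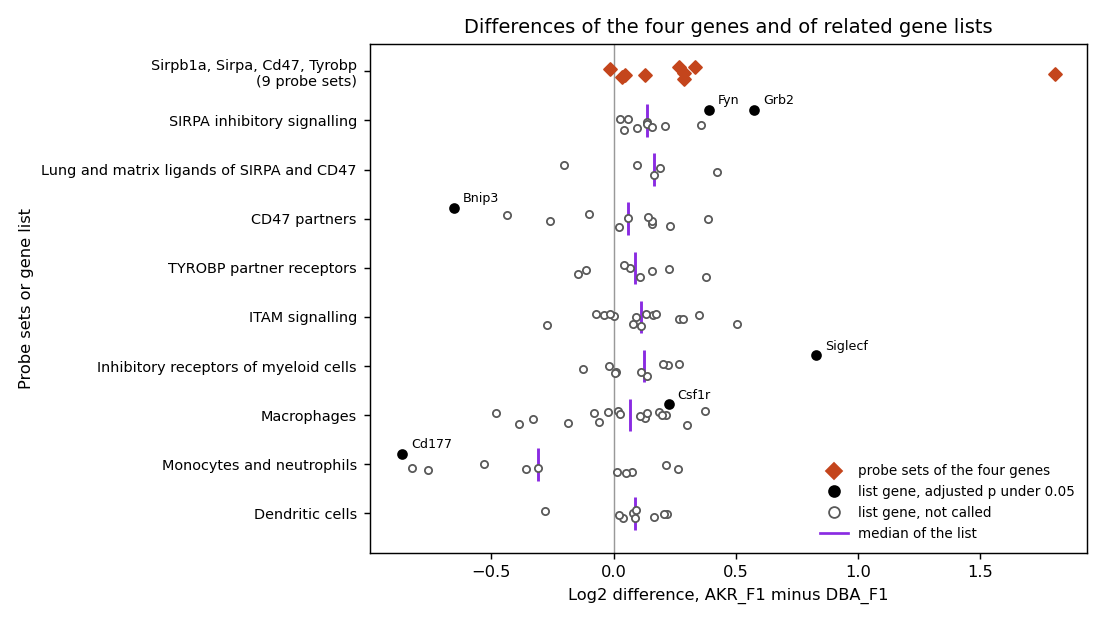
Log2 differences (AKR_F1 minus DBA_F1) of the 9 fitted probe sets of Sirpb1a, Sirpa, Cd47 and Tyrobp (diamonds) and of the tested genes of 9 related lists (circles, filled where the limma adjusted p was under 0.05). Purple lines are list medians. Sirpb1a, which was chosen for its difference, lies at 1.81. Of the list genes Siglecf (0.83) is the highest.

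Genes next to the members on their chromosomes were compared, since strain haplotypes are inherited in blocks. Of the 5 nearest genes on each side that have a probe set with a single symbol, 24 of 40 were tested and 0 were called by limma. An unadjusted p under 0.05 was reached by 6 of the 24, against 2523 of all 13202 tested genes. Sirpb1b, Sirpb1c and Gm5150, which lie between Sirpb1a and Ythdf3, have no probe set with a single symbol and are not among these genes. Around Sirpb1a, 6 of 10 genes were tested. Ythdf3, a reader of methylated RNA, differed by -0.09 ± 0.048, and Car2, carbonic anhydrase 2, by 0.15 ± 0.076. Car3, an adipose and muscle carbonic anhydrase on the far side of Car2, differed by -1.28 ± 0.26 (adjusted p = 0.0567), opposite in sign to Sirpb1a. Next to Sirpa, the cytokine genes Il1a (-0.21) and Il1b (0.11) were not called, nor was the kinase Stk35 (0.19, adjusted p = 0.161), which had no overlap. The epidermal transglutaminase Tgm3 differed by -2.38 ± 0.92 (adjusted p = 0.236). It had 5.07, 5.25 and 8.73 in AKR_F1 lungs, against 8.55, 9.27 and 8.38 in DBA_F1 lungs, so AKR_F1 replicate 3 lay among the DBA_F1 arrays. Tested neighbours of Cd47 lay between 0.01 and 0.07. Hcst, which encodes the sister adaptor DAP10 and adjoins Tyrobp, differed by -0.07 ± 0.081. Other Tyrobp neighbours whose groups did not overlap were Clip3 (-0.38, adjusted p = 0.0856), Sdhaf1 (-0.27, 0.13) and Nfkbid (0.57, 0.264).

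**Figure D4:**
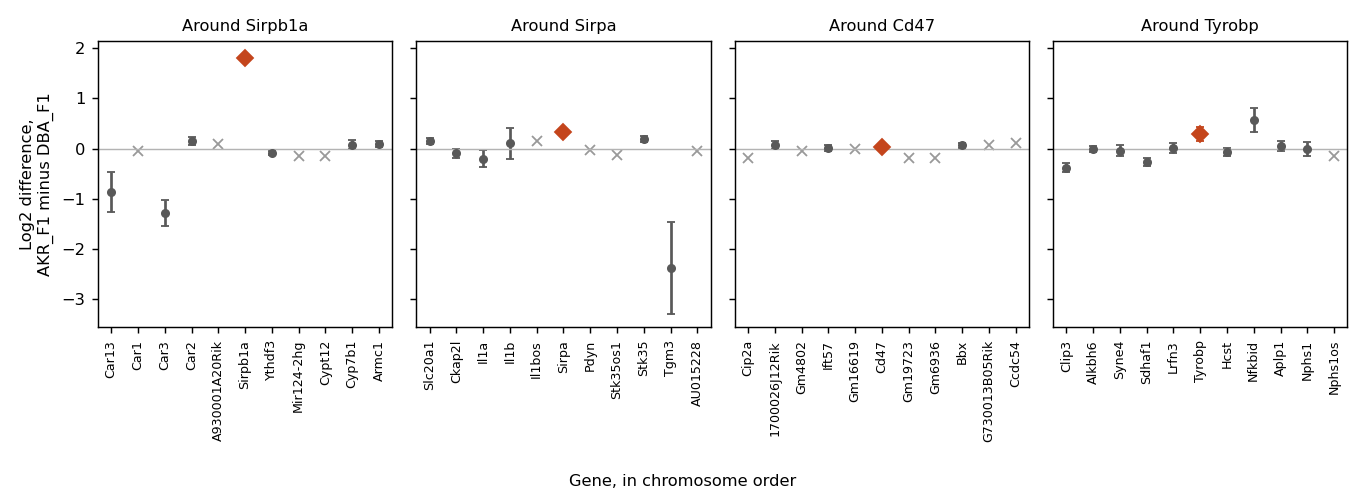
Log2 difference (AKR_F1 minus DBA_F1) of the brightest probe set of each gene (diamonds) and of the 5 genes on each side, in chromosome order, with the standard error as bars. Crosses are genes under the filter, which were not fitted. Sirpb1a, chosen for its difference, lies at 1.81, and none of the tested neighbours was called. Sirpb1b, Sirpb1c and Gm5150 have no probe set with a single symbol and are not shown.

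Patterns over the 6 arrays were compared by the root mean square distance between profiles, each centred on its own mean, among genes that varied at least as much as the member. Nearest to Sirpb1a among 136 genes were the epithelial protease Prss22 (distance 0.28 log2), the heparan sulphate proteoglycan Sdc4 (0.59) and Cd8a (0.745). Prss22 differed by 2.25 between the groups. Nearest to Sirpa among 2288 genes were Bcas1 (0.037), the cell surface glycoprotein Emb (0.038) and the adhesion molecule Nectin3 (0.040). Nearest to Cd47 among 8477 genes were Trim25 (0.025), Isg20 (0.027) and Recql5 (0.028). Nearest to Tyrobp among 1459 genes was Pilra, an inhibitory receptor of myeloid cells (0.046), followed by the transcription factor Egr2 (0.10) and Lcp2 (0.11). Pilra had 6.80, 6.45 and 6.85 in AKR_F1 lungs, against 6.43, 6.21 and 6.65 in DBA_F1 lungs, the same order of arrays as Tyrobp within each group.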

How the data were processed

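Total RNA from whole lung was hybridised to Affymetrix 3′ arrays, 3 in each group, with groups and replicate numbers from the sample titles. The deposited values are log2 signals, 1 for each probe set and array, and MAS5 and RMA are named, without versions or roles, per the submitters' processing notes. Array medians lay between 5.46 and 5.49, and the values were used as they are. Whether the arrays of a group are separate animals is not stated in the labels, and p-values then measure only the spread between these samples, which may be technical. Precision is limited by the number of arrays.

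After 64 control probe sets were removed, 45037 were left, 34945 of them with 1 gene symbol in the platform annotation, 932 with several and 9160 with none. Probe sets in the lowest 40% of mean signal were not tested. Group differences came from limma 3.58.1 in R 4.3.3 (lmFit, then trended eBayes, two-sided, group as the only term, Benjamini-Hochberg over 27022 probe sets). The fit was checked on simulated data. A list gene is its tested probe set with the highest mean. Chromosomal positions come from RefSeq GRCm38.p6.

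The members, lists and tests were chosen with earlier results of these data known. Every probe set of the 4 genes is named, then up to 4 called genes of each list or, with none called, the 2 with the largest difference, called neighbours, and the 3 nearest profiles of each member. Other list genes and neighbours given as examples were chosen after their values were seen.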

Additional observations from a re-analysis of the deposited data

How the results depend on the processing

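The alternatives were quantile normalization, median centring, other filters, untrended and robust eBayes, the use of array weights, a replicate block, leaving out each array, and AKR_F1 replicate 3 alone against the DBA_F1 arrays, where the lone array is assumed to vary like the others. Filters, eBayes settings and the replicate block leave a difference as it is, so only the other alternatives could move it. The Sirpb1a difference of 1.81 ran from 1.74 (AKR_F1 replicate 3 alone) to 1.84 over 14 alternatives, and a 60% filter left it out. Leaving out arrays could not turn its sign, nor that of the brightest Sirpa probe set, since their groups do not overlap. Over 15 alternatives the differences ran from 0.18 to 0.38 for the Sirpa probe sets and from 0.18 to 0.49 for Tyrobp. The bright Cd47 probe sets ranged from -0.10 to 0.13, and the dim 1430997_at was -0.11 with AKR_F1 replicate 3 alone. The shared Sirpb1 probe set ranged from -0.14 to 0.27.

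Called probe sets, 707 in all, numbered 1198 with array weights, 85 with AKR_F1 replicate 3 alone and 198 to 1171 with 1 array left out, the fewest without AKR_F1 replicate 1 and the most without AKR_F1 replicate 3. Called genes of the related lists, 4 in all, numbered 1 with AKR_F1 replicate 3 alone and 1 to 6 with 1 array left out, with 1 without AKR_F1 replicate 1 or DBA_F1 replicate 2 and 2 without AKR_F1 replicate 2. Called neighbours numbered 1 with median centring (Car3), 2 with array weights (Car3 and Clip3), 1 with AKR_F1 replicate 3 alone (Nfkbid), and 0 to 2 with 1 array left out (Car3 and Tgm3 without AKR_F1 replicate 3, Clip3 without DBA_F1 replicate 1). Deviations of same-numbered arrays from their group means had correlations of 0.31, -0.23 and -0.05, and those of arrays with unlike numbers ran from -0.28 to 0.31. With 3 arrays in each group, these values cannot decide whether the numbers pair the samples. With the replicate number as a block 539 probe sets, 4 related genes and 0 neighbours were called. Under it Grb2 (adjusted p = 0.0523), Cd177 and Csf1r lost their calls, and Thbs1 was called. The gene called with AKR_F1 replicate 3 alone was Lat. Csf1r lost its call in 10 of 15 alternatives, Sftpb in 6 of 15, Cd177 in 6 of 14, Bnip3 in 5 of 15, Grb2 and Siglecf in 4 of 15 each and Fyn in 2 of 15. The causes were not tested.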
